A study of Homo sapiens with 9 samples.

Results

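The genes examined here are 8 markers of leukaemia with the t(8;21) translocation: the transcription factor genes POU4F1 and PAX5, the receptor tyrosine kinase gene KIT with UBASH3B, the gene of a phosphatase that acts on such receptors, the progenitor surface marker CD34, the junction gene JUP, the caveola gene CAV1 and the hormone gene TRH. They were chosen by gene name from a list of 60623 Ensembl genes, each name stood for 1 identifier, and the question was whether any of them appears after 12 or 48 h of induction, and in which line. RNA-seq was performed on 9 libraries of U937, a human monocytic cell line, as stable lines carrying N-terminally HA-tagged AML1-ETO (clone #4), HA-tagged ETO2-GLIS2 (clone #14) or the empty vector, each grown without doxycycline (0 h) or with 5 μg/ml doxycycline for 12 or 48 h. The constructs were delivered by a retroviral doxycycline-inducible vector with puromycin selection, every fusion line is 1 clone, and all 3 lines also carry the genome of U937, which has no t(8;21) of its own. There was 1 library for each line and time, so no difference below has a replicate check and no p-value is given.

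The t(8;21) translocation joins the DNA-binding Runt domain of AML1 (RUNX1) to most of ETO (RUNX1T1), and the fusion protein AML1-ETO binds RUNX sites and recruits corepressors and coactivators. Blasts with this translocation are known for CD34 and KIT at the cell surface, for PAX5 and other B-lineage genes in a myeloid cell, and for high POU4F1, TRH and CAV1. JUP, which encodes plakoglobin (γ-catenin), and UBASH3B have been described as genes that AML1-ETO raises in myeloid cells. ETO2-GLIS2 shares an ETO-type moiety with AML1-ETO but binds DNA through the zinc fingers of GLIS2.

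The values are FPKM, reads on a gene scaled to its exon length and to the reads on all genes of the library, which can be compared between genes as levels per length. The reads behind each value were recovered from the values themselves. The libraries held 15136400 to 18443600 reads on genes, and 20764 to 22862 genes were above 0. RUNX1T1, whose sequence is part of the AML1-ETO transcript, had 0.512, 22.2 and 28.7 FPKM with AML1-ETO at 0, 12 and 48 h and at most 0.024 FPKM in the other lines. Of 12 monocytic markers, 8 to 10 were at 1 FPKM or more in each library, and CD14 was at most 0.0802 FPKM. The summed level of these 12 genes was 991 to 2202 FPKM in 8 libraries and 293 FPKM in the AML1-ETO line at 48 h. Most of the sum was from LYZ, ITGB2 and CD4. In the AML1-ETO line they were at 1346, 308 and 239 FPKM at 12 h and at 45.1, 20.1 and 191 FPKM at 48 h. Of 12 markers of other cell types, 7 or 8 were listed at 0 in every library, including the erythroid HBB and the T cell gene CD3E. PECAM1, an adhesion gene also found on leukocytes, was at 13.6 to 28.2 FPKM and NCAM1 at 0.153 to 2.09 FPKM.

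No member appeared. A gene was taken to appear in a line when it had at most 3 reads at 0 h, the limit that a count of 0 allows, and at least 10 reads at 12 or 48 h. This was met by 0 of the 2 members that were at or under 3 reads with the empty vector at 0 h, by 0 of 1 with AML1-ETO and by 0 of 3 with ETO2-GLIS2. The shares over all genes were taken among those at or under 3 reads at 0 h that had a read in at least 1 of the 9 libraries. Genes with no read in any library were left out, and counting them would lower each share. Of the 13809 such genes with the empty vector, 13582 with AML1-ETO and 13833 with ETO2-GLIS2, 2.01%, 4.49% and 2.96% appeared at 48 h. At 12 h the shares were 2.18%, 1.79% and 1.63%. POU4F1, UBASH3B, PAX5 and JUP were above 1 FPKM in all 9 libraries, before induction included. KIT stayed under 1 FPKM, and CD34, TRH and CAV1 had at most 5 reads in any library.

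A member was called higher or lower when its FPKM differed more than 2-fold between the libraries compared and the mean of both was at least 1 FPKM. Fold changes are log2 ratios after adding 0.01 FPKM, and the ranges in brackets are exact Clopper-Pearson 95% intervals of the ratio of recovered reads, which cover counting error only. POU4F1, UBASH3B, PAX5 and JUP passed the filter on low values. At 48 h against 0 h, JUP was the member called higher in the AML1-ETO line, beside 17.3% of all genes tested, and UBASH3B the member called lower, beside 11.3%. In the empty vector line PAX5 and JUP were called lower (2.99% of all genes) and no member higher (8.0%), and in the ETO2-GLIS2 line UBASH3B was called lower (2.54%) and no member higher (10.8%). At 12 h no member was called in any line, where 5.64% of genes were called higher and 1.88% lower with the empty vector, 6.57% and 2.39% with AML1-ETO, and 3.03% and 1.46% with ETO2-GLIS2. Over all genes tested the median log2 difference at 48 h was 0.16 with the empty vector, 0.22 with AML1-ETO and 0.16 with ETO2-GLIS2, against −0.81, −0.63 and −0.80 over the 4 members. After the libraries were rescaled by the median ratio, the number of all genes called higher and lower at 48 h went from 930 and 347 to 656 and 499 with the empty vector. It went from 2077 and 1364 to 1608 and 1669 with AML1-ETO and from 1262 and 297 to 922 and 416 with ETO2-GLIS2.

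The stretches of 250 bases just before the annotated starts of these 4 genes are printed because AML1-ETO can reach a promoter through its Runt domain or through partner proteins. They are from RefSeq for GRCh38.p14, where all 8 members had an entry, and are written 5′ to 3′ on the strand of the gene. POU4F1 lies on the minus strand, at chr13:78603553-78603802 for this stretch, and UBASH3B on the plus strand, at chr11:122655472-122655721. PAX5 lies on the minus strand, at chr9:37034269-37034518. JUP, on the minus strand, has 2 annotated starts, with stretches at chr17:41786712-41786961 and chr17:41785977-41786226. Capitals mark any match, on either strand, to the RUNX letters TGTGGT or TGCGGT, the E-box CAGCTG, the ETS letters CGGAAG, the AP-1 letters TGANTCA or the C/EBP letters TTGCNNAA.
POU4F1: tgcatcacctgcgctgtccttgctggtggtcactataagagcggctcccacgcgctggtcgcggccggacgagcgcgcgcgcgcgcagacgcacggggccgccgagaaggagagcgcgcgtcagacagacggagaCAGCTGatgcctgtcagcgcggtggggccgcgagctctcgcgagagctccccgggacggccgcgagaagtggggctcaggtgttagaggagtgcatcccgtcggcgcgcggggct
UBASH3B: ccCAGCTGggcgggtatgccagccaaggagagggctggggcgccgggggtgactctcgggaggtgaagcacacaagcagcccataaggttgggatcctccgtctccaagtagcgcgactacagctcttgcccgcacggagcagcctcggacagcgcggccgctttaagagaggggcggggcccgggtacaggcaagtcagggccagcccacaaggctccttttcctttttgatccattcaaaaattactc
PAX5: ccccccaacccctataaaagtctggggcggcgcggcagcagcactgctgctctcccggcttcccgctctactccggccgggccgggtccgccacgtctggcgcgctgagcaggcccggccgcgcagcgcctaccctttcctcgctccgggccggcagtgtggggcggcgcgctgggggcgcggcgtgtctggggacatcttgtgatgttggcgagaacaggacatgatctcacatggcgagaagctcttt
JUP start 1: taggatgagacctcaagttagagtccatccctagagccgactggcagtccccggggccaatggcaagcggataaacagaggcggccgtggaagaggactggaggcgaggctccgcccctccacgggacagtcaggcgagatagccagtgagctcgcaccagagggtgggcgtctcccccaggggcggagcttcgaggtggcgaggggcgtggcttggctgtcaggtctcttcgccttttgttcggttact
JUP start 2: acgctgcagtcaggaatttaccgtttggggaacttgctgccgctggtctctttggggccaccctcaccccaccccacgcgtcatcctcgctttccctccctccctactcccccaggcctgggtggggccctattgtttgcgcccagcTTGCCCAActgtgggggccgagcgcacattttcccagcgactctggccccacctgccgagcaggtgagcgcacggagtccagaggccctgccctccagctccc

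Neither set of RUNX letters was found in these 5 stretches, where 16.3% of 35116 RefSeq promoter stretches of the same length held at least 1 of them. TGTGGT alone was in 11.0% and TGCGGT alone in 5.84%. Of the other members, the third annotated start of CAV1 had TGTGGT, 55 to 50 bases before it, and KIT, CD34 and TRH had neither. CAGCTG, the form of the E-box searched here, occurred in POU4F1, 115 to 110 bases before the start, and in UBASH3B, 248 to 243 bases before it. It was in 4911 of all 35116 stretches. Other E-box forms that bHLH proteins read were not searched, and unmarked bases may hold them. The stretch of the second JUP start held TTGCCCAA, a match to the C/EBP letters, 103 to 96 bases before it, and such a match was in 9.05% of all stretches. The ETS letters (16.5% of all stretches) and the AP-1 letters (6.57%) were in none of the members' stretches. These are matches of letters in short windows, and they say nothing of whether a protein was bound.

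JUP rested on 994, 1012 and 3043 reads in the AML1-ETO line at its 3 times, which give 12.1, 13.3 and 40.5 FPKM. Its protein, plakoglobin, is a relative of β-catenin that sits in desmosomes and adherens junctions and can take part in WNT signalling. With the empty vector it had 8.12, 4.72 and 2.81 FPKM, from 653, 353 and 214 reads, and in the ETO2-GLIS2 line 7.91, 5.94 and 6.28 FPKM, from 721, 525 and 508 reads. The induced AML1-ETO library at 48 h stood above the other 8 libraries, and the empty vector line at 48 h below them. In bulk RNA, fewer cells with a transcript and less of it per cell cannot be told apart, here and for every member below.

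Within the AML1-ETO line JUP was 3.34-fold higher at 48 h than at 0 h, a log2 difference of 1.74 (1.63 to 1.84), and 6.80% of the genes tested had a larger one. Nearly all of this difference lay after 12 h. The log2 difference was 0.13 (0.00 to 0.26) from 0 to 12 h, which became −0.04 after rescaling by the median ratio, and 1.61 (1.51 to 1.71) from 12 to 48 h, a call higher that 9.12% of genes shared. In the empty vector line the difference at 48 h was −1.53 (−1.76 to −1.30), lower than in all but 1.41% of genes tested, and −0.78 (−0.97 to −0.59) was already present at 12 h. In the ETO2-GLIS2 line it was −0.33 (−0.50 to −0.17) at 48 h. JUP was thus higher under AML1-ETO while it was lower with the doxycycline-treated vector, both past 2-fold, as were 31 of 11099 genes (0.279%). This pairing of directions was singled out after the values were seen.

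Compared with the empty vector line at the same time, JUP in the AML1-ETO line was 1.49-fold higher at 0 h, 2.81-fold at 12 h and 14.4-fold at 48 h. At 12 h the log2 ratio was 1.49 (1.32 to 1.67), a call higher beside 4.4% of genes. The difference at 0 h, a log2 ratio of 0.58 (0.43 to 0.72), was present between the clones without doxycycline, when RUNX1T1 was at 0.512 FPKM in this line. The log2 ratio at 48 h was 3.84 (3.65 to 4.05), larger than in all but 1.37% of genes tested, and 11.8% of genes were called higher in this comparison. The ETO2-GLIS2 line had a log2 ratio of −0.04 (−0.19 to 0.12) at 0 h and 1.16 (0.93 to 1.40) at 48 h, which made JUP the member called higher there (4.15% of genes). Its level in that line hardly differed between 12 and 48 h (0.08, −0.10 to 0.26), so the ratio of the lines at 48 h also holds the lower value of the empty vector line. Both fusion lines are compared here with the same control libraries.

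**Figure D1:**
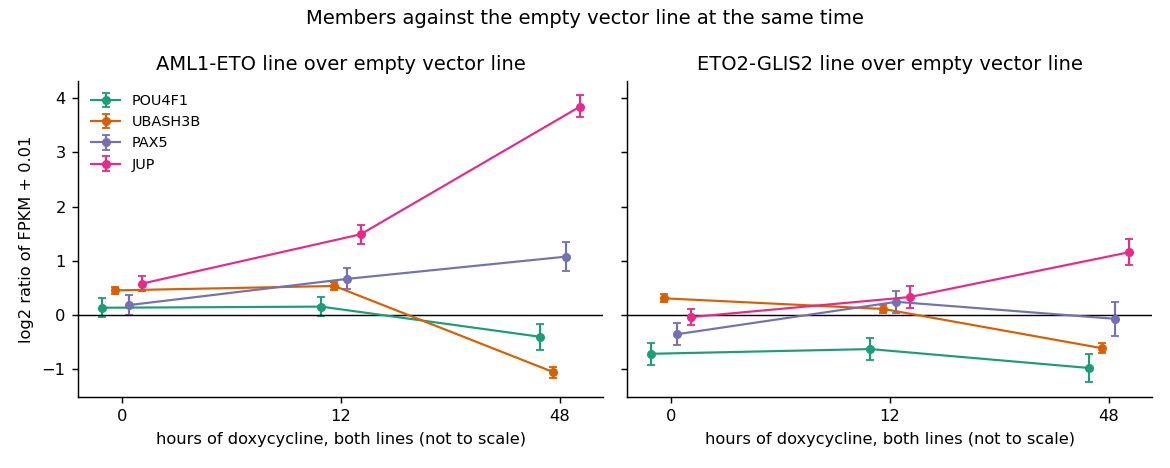
Log2 ratio of FPKM plus 0.01 (vertical axis) in the AML1-ETO line (left) and the ETO2-GLIS2 line (right) to the empty vector line at the same time, against hours of doxycycline (horizontal axis, not to scale), with exact 95% counting intervals as bars. The ratio of JUP goes from 0.58 to 3.84 with AML1-ETO and from −0.04 to 1.16 with ETO2-GLIS2, PAX5 reaches 1.08 with AML1-ETO, and UBASH3B ends at −1.05 and −0.61.

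Of 17 desmosome, adherens junction and WNT genes other than JUP, 6 passed the filter in the AML1-ETO line at 48 h, with a median log2 fold change of 0.12 beside 0.22 over all genes. TCF7L2, which encodes a transcription factor partner of β-catenin, went from 1.24 to 3.01 FPKM and was the gene called higher. MYC, a growth regulator that WNT signalling is known to activate, was the gene called lower, at 35.1, 49.9 and 13.8 FPKM at 0, 12 and 48 h. From 0 to 48 h it also went from 40.0 to 21.1 FPKM with the empty vector and from 27.8 to 18.1 FPKM with ETO2-GLIS2, both within 2-fold. Other catenin genes were within 2-fold or under the filter in the AML1-ETO line. CTNNB1, the β-catenin gene, was at 24.4 and 26.5 FPKM at 0 and 48 h, and CTNNA1, the α-catenin gene, at 11.2 and 12.2 FPKM, while CTNND1, the p120-catenin gene, went from 0.439 to 1.47 FPKM with a mean under 1 FPKM. DSP, which encodes the desmosomal protein desmoplakin, was at most 0.0196 FPKM in any library, and CDH1, the E-cadherin gene, was listed at 0 except for 0.01 FPKM in the ETO2-GLIS2 line at 48 h. TCF7L2 was also called higher in the ETO2-GLIS2 line, from 0.829 to 2.67 FPKM, and went from 1.27 to 2.12 FPKM with the empty vector, within 2-fold.

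JUP lies at chr17:41754609-41786711 of GRCh38.p14, and none of its exon bases was under another annotated gene. Its nearest protein-coding neighbours by position in RefSeq were HAP1, which was at most 0.0312 FPKM, and P3H4, a gene of a collagen-modifying family. P3H4 was at 9.64, 9.34 and 8.76 FPKM in the AML1-ETO line and at 6.64, 6.48 and 4.07 FPKM with the empty vector. These neighbours are given for their place beside JUP, chosen after its values were seen. The 3 genes whose pattern over the 9 libraries was most like that of JUP were PDXDC1 (Pearson r 0.99), KDM5B (0.98) and COQ9 (0.98), among 11819 genes compared, all with a mean of 1 FPKM or more. KDM5B, a histone H3K4 demethylase gene, was at 14.6 FPKM in the AML1-ETO line at 48 h and at 5.50 to 8.67 FPKM in the other libraries. All such correlations rest on 9 libraries that share lines and times, and they are descriptions without a test.

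UBASH3B had 26.0, 25.1 and 8.32 FPKM in the AML1-ETO line, from 3867, 3479 and 1135 reads. It encodes STS-1, a phosphatase that binds the ubiquitin ligase CBL and removes phosphate from activated tyrosine kinases, KIT among them. In the ETO2-GLIS2 line it had 23.5, 18.7 and 11.3 FPKM, from 3886, 3004 and 1656 reads, and with the empty vector 19.0, 17.3 and 17.3 FPKM, from 2768, 2352 and 2384 reads. Both fusion lines began above the empty vector line and ended below it. The difference at 48 h against 0 h was −1.64 (−1.74 to −1.55) with AML1-ETO, which is 3.13-fold lower, and 5.56% of the genes tested had a larger negative value. It was −1.06 (−1.14 to −0.97) with ETO2-GLIS2, 2.08-fold lower, where 2.24% of genes had a larger negative value, and −0.14 (−0.22 to −0.06) with the empty vector.

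With AML1-ETO the difference of UBASH3B from 0 to 12 h was −0.05 (−0.12 to 0.02), and from 12 to 48 h it was −1.59 (−1.69 to −1.50). With ETO2-GLIS2 it was −0.33 (−0.40 to −0.26) by 12 h and −0.73 (−0.82 to −0.64) from 12 to 48 h, and with the empty vector −0.13 (−0.21 to −0.05) by 12 h. After rescaling, the differences by 12 h were −0.21 with AML1-ETO, −0.45 with ETO2-GLIS2 and −0.28 with the empty vector. At 48 h the AML1-ETO line was 2.08-fold below the empty vector line, a call lower that 11.7% of genes shared, and the ETO2-GLIS2 line was 1.53-fold below it. Before induction the same lines were 1.37-fold and 1.24-fold above it, so each crossed the control. UBASH3B lies at chr11:122655722-122814473, and its closest patterns were those of ANP32E, AC008659.1 and ERLIN1 (Pearson r 0.98, 0.98 and 0.97). ANP32E, a chaperone gene for the histone variant H2A.Z, was at 149, 141 and 71.4 FPKM in the AML1-ETO line.

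In the AML1-ETO line KIT had 41 reads at 0 h, 18 at 12 h and none at 48 h, or 0.444, 0.210 and 0 FPKM. It encodes the receptor of stem cell factor and is carried by most blasts with t(8;21). The empty vector line had 20, 37 and 12 reads (0.221, 0.439 and 0.140 FPKM) and the ETO2-GLIS2 line 30, 62 and 50 reads (0.292, 0.623 and 0.549 FPKM). It was the AML1-ETO library at 48 h alone, of 9, that held no read of KIT. Set at the floor of 3 reads, and with the reads of the other library taken as exact, that library was at least 12.5-fold lower than the 0 h library of the same line and at least 3.95-fold lower than the empty vector line at 48 h. With the counting error of both libraries, the 95% limits of these log2 differences nearest to 0 were −3.29 and −1.46. Of all genes with at least 10 reads at 0 h, 1.84% were at 3 reads or fewer at 48 h in this line, and of those with 10 to 100 reads at 0 h, as KIT had, 5.79% were. The same shares were 0.974% and 3.21% with the empty vector and 0.903% and 3.1% with ETO2-GLIS2, where KIT was not among these genes, a criterion set after the values of KIT were seen.

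**Figure D2:**
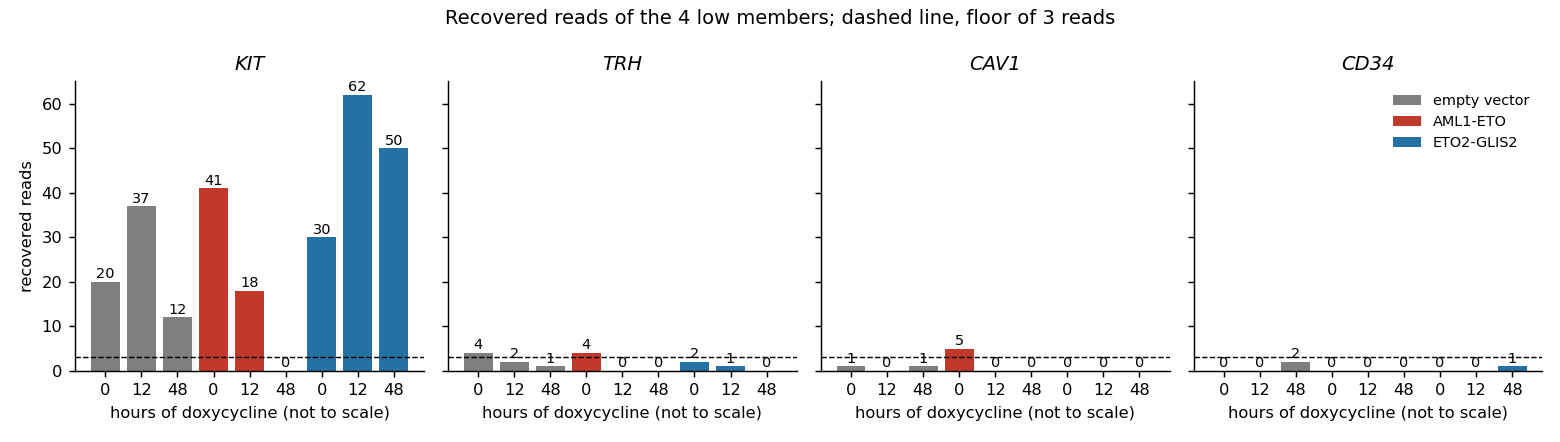
Recovered reads (vertical axis, from 0, the same for all panels) of KIT, TRH, CAV1 and CD34 in the 9 libraries, 3 bars for each line at 0, 12 and 48 h of doxycycline, with the number of reads above each bar and the floor of 3 reads as a dashed line. KIT goes from 41 reads to 0 in the AML1-ETO line and stands at 30 to 62 reads in the ETO2-GLIS2 line, and the other 3 genes reach 5 reads at most.

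The ETO2-GLIS2 line held the 2 highest levels of KIT. Its difference at 48 h against 0 h was 0.89 (0.23 to 1.61), and at 12 h it was 1.07 (0.44 to 1.77), but the empty vector line also had a difference of 0.96 (0.17 to 1.85) at 12 h. At 48 h the ETO2-GLIS2 line was 3.92-fold above the empty vector line (log2 1.90, 1.04 to 3.02). The mean of KIT was under 1 FPKM in every comparison, so none of these values counted as a call. Ordered by level, 7 of the 8 neighbouring pairs of libraries could not be told apart at this depth. The exon length implied by the values, 5563 bases, was 49.1% of that in the GRCh37 annotation used for comparison. For the other members the share was 99.8% to 100%. Recovery kept the smallest exon length that gave whole reads, and a multiple of it, with as many times more reads, would also give whole reads. If the annotation behind the values differs instead, the level of KIT per length depends on it. Which of these holds was not tested. KIT lies at chr4:54657957-54740715. The genes with the closest patterns were CKS1BP2, NFATC2 and SMYD3 (Pearson r 0.97, 0.96 and 0.95).

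Of 16 genes around KIT signalling, 12 passed the filter in the AML1-ETO line at 48 h, with a median of −0.03. None was called higher and 2 were called lower, beside 11.3% of all genes. PTPN6, which encodes the phosphatase SHP-1 that opposes KIT and cytokine receptor signals, went from 46.1 to 27.1 and 8.69 FPKM, a log2 difference of −2.41 at 48 h. SH2B3, the gene of the adaptor LNK that restrains such receptors, went from 16.8 to 13.0 and 6.78 FPKM, a difference of −1.31. CBL, SPRED1, SOCS1 and CBLB, other genes of the list that restrain signalling, were not lower there. At 0 and 48 h CBL was at 18.4 and 20.8 FPKM, SPRED1 at 0.778 and 1.36 FPKM and SOCS1 at 0.403 and 0.878 FPKM. CBLB was at 2.28 FPKM at 48 h with a log2 difference of 0.60. SPRY1, also a restraining gene, was lower, at 0.365 and 0.149 FPKM, and under the filter. In the ETO2-GLIS2 line PTPN6 was at 36.4 and 37.3 FPKM and SH2B3 at 12.4 and 22.9 FPKM, and none of the list was called. KITLG, the gene of the ligand, was listed at 0 in every library, and UBASH3A, the relative of UBASH3B, was at most 0.134 FPKM.

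CD34 had 2 reads in the empty vector line at 48 h, 1 read in the ETO2-GLIS2 line at 48 h and none in the other 7 libraries. It encodes the sialomucin by which haematopoietic progenitors are recognised. The floor of 3 reads corresponds to 0.0177 to 0.0215 FPKM for this gene, so a level below that was not detectable at this depth. In the AML1-ETO line it was listed at 0 at all 3 times. CD34 lies at chr1:207880972-207911125.

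Of 18 other stem and progenitor genes, 6 passed the filter in the AML1-ETO line at 48 h, with a median of −0.31. Among these 1 was called higher and 3 were called lower, beside 17.3% and 11.3% of all genes. MEIS1, a homeobox gene of stem cells, went from 6.90 to 14.5 FPKM. FLT3, the gene of a progenitor cytokine receptor, went from 9.38 to 5.83 and 0.743 FPKM. SOX4 went from 7.47 to 3.19 FPKM and MYB, a transcription factor of immature blood cells, from 88.9 to 41.8 FPKM. With ETO2-GLIS2 none of the list was called. PROM1, the CD133 gene, was listed at 0 in all libraries.

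POU4F1 was present in all 3 lines before induction and was not higher after it at 48 h. The gene encodes BRN3A, a POU-domain factor of sensory neurons that is known for its high level in t(8;21) leukaemia. It had 7.24, 7.89 and 3.78 FPKM in the AML1-ETO line, from 545, 553 and 261 reads, and 6.60, 7.09 and 5.00 FPKM with the empty vector, from 487, 487 and 349 reads. The ETO2-GLIS2 line had 4.01, 4.58 and 2.53 FPKM, from 336, 372 and 188 reads, the lowest of the lines at each time. In every line the 48 h library was the lowest of its 3.

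The difference of POU4F1 at 48 h against 0 h was −0.94 (−1.16 to −0.72) with AML1-ETO, −0.66 (−0.93 to −0.40) with ETO2-GLIS2 and −0.40 (−0.60 to −0.20) with the empty vector. None was past 2-fold as deposited, and the first became −1.10 after rescaling by the median ratio. From 12 to 48 h the AML1-ETO line had −1.06 (−1.28 to −0.85), a call lower shared with 10.2% of genes. At 12 h the differences from 0 h were 0.12 with AML1-ETO (−0.05 to 0.30) and 0.10 with the empty vector (−0.08 to 0.29), both of which turned to −0.04 and −0.05 after rescaling. Against the empty vector line, POU4F1 in the AML1-ETO line was at 0.13 (−0.04 to 0.31) at 0 h and −0.40 (−0.64 to −0.17) at 48 h. Of the 8 neighbouring pairs in the order of its levels, 6 could not be told apart.

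POU4F1 lies at chr13:78598362-78603552, and 27.7% of its exon bases are also under an exon of a gene on the opposite strand, ENSG00000271776. That gene was at 0.0176 to 0.223 FPKM, and since the library kit does not mark strand, reads from the pair cannot be told apart in the shared bases. Counting is described as run with default parameters, which in HTSeq treat reads as stranded, and the strand setting itself is not given in the sources used here. It decides whether shared and opposite-strand reads were counted, so the reads of POU4F1 may not be all those that fell on its exons. Of 7 other POU4F and neurotrophin receptor genes, none reached the filter in any line. The relative POU4F2 and the receptor genes NGFR, NTRK2 and NTRK3 were listed at 0 in all 9 libraries. Among the closest patterns to POU4F1 were those of FAM20B and DDX54 (Pearson r 0.97 and 0.96).

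PAX5, which encodes the transcription factor that commits cells to the B lineage, was likewise present at 0 h in all lines. It had 3.16, 3.90 and 2.52 FPKM in the AML1-ETO line, from 501, 576 and 367 reads, and 2.78, 2.45 and 1.19 FPKM with the empty vector, from 433, 355 and 175 reads. In the ETO2-GLIS2 line it had 2.18, 2.90 and 1.13 FPKM, from 384, 497 and 177 reads. Each line was lowest at 48 h, and least so the AML1-ETO line. The difference at 48 h was −0.32 (−0.52 to −0.13) with AML1-ETO, −0.94 (−1.21 to −0.68) with ETO2-GLIS2 and −1.22 (−1.49 to −0.97) with the empty vector. After rescaling, the value with ETO2-GLIS2 was −1.10 and past 2-fold.

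Measured against the empty vector line at the same time, PAX5 in the AML1-ETO line was 1.14-fold higher at 0 h, 1.59-fold at 12 h and 2.12-fold at 48 h. The log2 ratio at 48 h, 1.08 (0.82 to 1.35), made it a call higher, while 10.4% of genes tested had a larger one. This ratio was reached with a lower level than at 0 h in both lines. The ETO2-GLIS2 line did not differ from the empty vector line beyond counting error at 48 h (−0.07, −0.38 to 0.24). In both fusion lines the 12 h library was above the 0 h library, by 0.30 (0.13 to 0.48) with AML1-ETO and 0.41 (0.22 to 0.61) with ETO2-GLIS2, and in the empty vector line it was at −0.18 (−0.39 to 0.02). After rescaling these values were 0.14, 0.30 and −0.33. From 12 to 48 h PAX5 was called lower with the empty vector (−1.04, 3.04% of genes) and with ETO2-GLIS2 (−1.35, 2.14% of genes). The gene lies at chr9:36833269-37034268, and 1.32% of its exon bases are under a gene on the opposite strand that was at most 0.0827 FPKM. Its closest patterns were those of GANC, PPP5C and ALG1L7P (Pearson r 0.96, 0.95 and 0.94).

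Of 15 other B-lineage genes, 3 passed the filter in the AML1-ETO line at 48 h, of which 2 were called higher and 1 lower. The shares over all genes were 17.3% and 11.3%. CD22, the gene of a B cell receptor inhibitor, went from 0.0880 to 0.473 and 3.27 FPKM and was called higher, as was EBF1, a B-lineage transcription factor gene, which went from 1.42 to 2.31 and 3.41 FPKM. None was called with ETO2-GLIS2, though CD22 went from 0.0616 to 0.813 FPKM and EBF1 from 1.28 to 2.45 FPKM. With the empty vector CD22 was at most 0.158 FPKM and EBF1 at 2.29 and 2.13 FPKM. The B cell markers MS4A1, CD79B and IGHM were listed at 0 in all libraries.

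TRH, the gene of thyrotropin-releasing hormone, had 4, 2 and 1 reads with the empty vector, 4, 0 and 0 reads with AML1-ETO and 2, 1 and 0 reads with ETO2-GLIS2. No library exceeded 0.154 FPKM, and the floor of 3 reads is 0.102 to 0.125 FPKM for this gene, which is short. The counts are too few for a fold in any comparison. TRH lies at chr3:129974720-129977935. Of 7 genes of TRH processing and reception, 2 passed the filter in the AML1-ETO line at 48 h. FURIN, a proprotein convertase gene, went from 57.3 to 37.5 and 21.9 FPKM and was called lower (−1.39), beside 11.3% of all genes. PAM, the gene of the enzyme that amidates peptide hormones, was at 6.42 FPKM at 0 h, with a log2 difference of −0.68 at 48 h. The convertase gene PCSK2 was listed at 0 throughout, PCSK1 was at most 0.0242 FPKM and the receptor gene TRHR at most 0.157 FPKM.

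CAV1, which encodes the caveola protein caveolin-1, had 5, 0 and 0 reads in the AML1-ETO line, 1, 0 and 1 with the empty vector and none with ETO2-GLIS2. Its 5 reads are 0.0780 FPKM, and the floor is 0.0421 to 0.0513 FPKM. CAV1 lies at chr7:116525009-116561185. Of 8 other caveola genes, 3 passed the filter in the AML1-ETO line at 48 h and 1 was called higher, beside 17.3% of all genes. This was EHD2, the gene of an ATPase at the neck of caveolae, which went from 7.75 to 9.03 and 36.6 FPKM, a log2 difference of 2.24. The same gene was at 7.15 and 6.89 FPKM with ETO2-GLIS2 and at 6.20 and 5.41 FPKM with the empty vector at 0 and 48 h. CAVIN1 and CAV2, which caveolae need or contain, were at most 0.135 and 0.00917 FPKM.

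**Figure D3:**
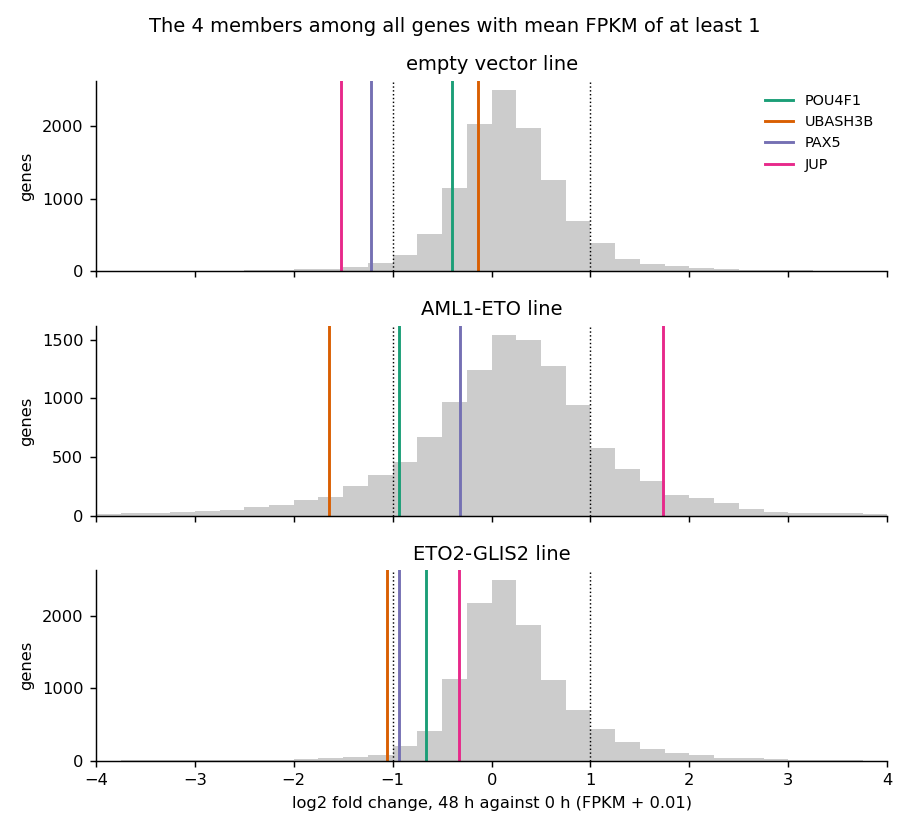
Number of genes with a mean of at least 1 FPKM (vertical axes, grey bars) by log2 fold change at 48 h against 0 h (horizontal axis, shown from −4 to 4) in each line, with the values of POU4F1, UBASH3B, PAX5 and JUP as coloured lines and 2-fold as dotted lines. JUP is at 1.74 in the AML1-ETO line, at −1.53 in the empty vector line and at −0.33 in the ETO2-GLIS2 line, and POU4F1, UBASH3B and PAX5 are below 0 in all 3.

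POU4F1, UBASH3B and PAX5 were lower at 48 h in all 3 lines, by any amount, as were 1800 of 10830 genes (16.6%) tested in all lines. For each of these 3 members the interval lay below 0 in each line. JUP was the member that was higher with AML1-ETO and lower in both other lines, a pattern shared by 709 of the same genes (6.55%). Over all genes, 17.3% were called higher and 11.3% lower in the AML1-ETO line at 48 h. Of 14 other genes reported as raised with AML1-ETO, 9 passed the filter there and 1, RUNX1T1 itself, was called higher. Since RUNX1T1 sequence is part of the induced transcript, its call follows from the design. No other gene of that list was called higher. Called lower were BCL2 (3.03 to 0.413 FPKM), which protects from apoptosis, IGFBP7 (8.06 to 0.613 FPKM) and ID1 (9.34 to 4.48 FPKM). Of 9 genes reported as lowered with AML1-ETO, 8 passed and 7 were called lower, with a median of −3.43, among them CEBPA (98.5 to 6.62 FPKM) and NFE2 (9.57 to 0.0556 FPKM). CEBPE, a granulocytic factor gene of that list, was called higher (10.7 to 24.4 FPKM). It was also called higher with the empty vector (6.45 to 13.8 FPKM), and was at 8.30 and 9.52 FPKM with ETO2-GLIS2. Of the monocytic markers 8 passed the filter in the AML1-ETO line at 48 h. LYZ (970 to 45.1 FPKM), ITGB2 (311 to 20.1 FPKM), TYROBP (16.9 to 1.59 FPKM) and FCER1G (40.5 to 16.8 FPKM) were called lower, and ITGAX (1.95 to 6.86 FPKM) higher. With ETO2-GLIS2 4 monocytic markers were called higher, ITGAX (2.82 to 10.7 FPKM) among them, and LYZ (1283 to 332 FPKM) was called lower. The shares over all genes were 10.8% and 2.54% there. With the empty vector 3 monocytic markers were called higher and 0 lower, beside 8.0% and 2.99% of all genes. Whether the lower monocytic markers have a part in the levels of UBASH3B, KIT or JUP in the AML1-ETO library at 48 h was not tested.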

How the data were processed

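RNA-seq of 9 U937 libraries was used, 3 lines at 3 times with 1 library each, grouped by the titles of the samples. The authors aligned reads from a TruSeq RNA v2 kit, which does not mark strand, to hg38 with HISAT2 (2.0.5), used SAMtools (1.7) and HTSeq (0.9.1) to obtain reads per gene and deposited FPKM for 60623 genes. The annotation version is not given in the sources used here. Since FPKM is relative to the reads on all genes, a change in abundant genes moves every other value.

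Reads were recovered from the FPKM, since each value of a gene is a whole number of steps of 1 read. Of 23889 genes above 0 in at least 3 libraries, 23593 (98.8%) gave whole reads within 0.15 of a read. Where more than 1 exon length gave whole reads, the smallest was taken. Values above 10000 reads were left unrecovered. Recovered reads served intervals (95%, exact Clopper-Pearson) and floors (3 reads). They cover counting error only, since PCR copies were not separated by molecular identifiers. Fold changes use the deposited FPKM with a pseudocount of 0.01, which understates the change of low genes, and calls need a 2-fold change and a mean of at least 1 FPKM. Similar patterns were ranked by Pearson r of log2(FPKM + 0.1). The scripts were tested on simulated data. Python (3.11.15), numpy (2.4.6), pandas (2.3.3), scipy (1.17.1) and matplotlib (3.10.9) were used.

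The 8 members and the 11 lists, written from general knowledge, were chosen with earlier results of these data known. Genes named from a list are those called at 48 h in the AML1-ETO line, at most 4 per list, and, beyond that rule, genes at 0 or with a close role, chosen after their values were seen. The criterion of a fall to 3 reads was also set then. Coordinates and promoters are from RefSeq (GRCh38.p14), and exon lengths and overlaps from an annotation on GRCh37, from which no coordinates were taken. Alternatives covered the pseudocount, filter, scaling, threshold, reference library, time and the rule on repeated names. ChIP-seq was not analysed here, and a few genes that these rules would name are not reported here.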

Additional observations from a re-analysis of the deposited data

Results flagged for a closer look

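At 48 h JUP was higher than at 0 h with AML1-ETO and lower in each of the other lines. Its log2 fold change with AML1-ETO (1.74) was 3.26 above that with the empty vector (−1.53) and 2.07 above that with ETO2-GLIS2 (−0.33). KIT also moved in opposite directions in the fusion lines. With the AML1-ETO library at 48 h set at its floor of 3 reads, the log2 fold change of KIT minus that with ETO2-GLIS2 was −4.54, which takes the other 3 libraries, at 41, 30 and 50 reads, as exact and is no bound once their counting error is included. With 1 library for each line and time, none of these differences was tested.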

How the results depend on the processing

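No paired analysis was possible because each line and time had 1 library, and for the same reason none could be left out. No member appeared in any line under either other limit for appearing, and the rule on repeated names changed nothing, since no member's name repeats. JUP at 48 h in the AML1-ETO line was at 1.57 after rescaling by the median ratio, 3.84 against the empty vector line at the same time, 3.26 with the change of that line subtracted, 2.32 against its 0 h library and 0.13 at 12 h in place of 48 h. Against the empty vector line at the same time PAX5 with AML1-ETO turned from −0.32 to 1.08, and JUP with ETO2-GLIS2 from −0.33 to 1.16, or 1.19 with the change of that line subtracted. The number of members called lower at 48 h was 2 with the empty vector, and 1 with a pseudocount of 1 FPKM or a mean of at least 5 FPKM and 0 at 12 h. With AML1-ETO it was 1, and 2 after rescaling or at a 1.5-fold threshold, 4 without a filter and 0 at 12 h. With ETO2-GLIS2 it was 1, and 0 with a pseudocount of 1 FPKM, against the empty vector line at the same time, with its change subtracted or at 12 h, 2 without a filter, after rescaling or against the empty vector line at 0 h, and 3 at 1.5-fold. The number called higher was 1 with the empty vector without a filter, 2 with AML1-ETO against the empty vector line at the same time and 0 at 12 h, and 1 with ETO2-GLIS2 against that line or with its change subtracted. Over all genes, the count called higher and lower in the AML1-ETO line (2077 and 1364) ran from 758 to 3817 and from 282 to 2225 over the filtered alternatives, and was 7965 and 4468 without a filter. In the empty vector line (930 and 347) it ran from 282 to 2373 and from 114 to 860, or 5402 and 3415, and in the ETO2-GLIS2 line (1262 and 297) from 343 to 2615 and from 127 to 730, or 6541 and 2841. The 282 called lower with AML1-ETO and the 343 called higher with ETO2-GLIS2 are counts at 12 h in place of 48 h. With 48 h kept, the lowest of these were 755 and 355, at a mean of at least 5 FPKM. By Spearman rho in place of Pearson r, ANP32E and AC008659.1 stayed among the 3 genes nearest UBASH3B, PDXDC1 for JUP, NFATC2 for KIT and PPP5C and ALG1L7P for PAX5, and none for POU4F1. Where values changed, the cause was not tested. Depth limits TRH, CAV1 and CD34, whose counts of at most 5 reads allow no fold.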
